A study of Mus musculus with 2 samples.

Results

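The metallothioneins described here are Mt1, Mt2 and Mt3, picked by gene name from a table of ribosome footprint counts, 3 genes of 45578. Footprints are the short pieces of mRNA that a translating ribosome shields from nuclease, and their number on a gene reflects how many ribosomes were on its mRNA. They came from the polysomal fractions of whole brains of 2 control mice at postnatal day 5. Both animals had the genotype Smn+/-; SMN2tg/0, that is, 1 disrupted copy of mouse Smn together with a human SMN2 transgene, on the FVB strain, and they formed a single group of biological replicates 1 and 2. No treatment, other genotype or other age is compared. Mt3 was singled out in earlier results of these data for its difference between the replicates, so the replicate comparison below is a description and not a finding.

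Metallothioneins are very small proteins rich in cysteine, whose thiol groups bind zinc and copper. Mt1 and Mt2 are made in many tissues, in brain mainly in astrocytes, and their genes are switched on by metals through the zinc-sensing factor Mtf1 and by glucocorticoids and stress. Mt3, first described as a neuronal growth inhibitory factor, is the brain form and responds little to metals, and Mt4 belongs to stratified epithelia.

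The genes lie next to each other on mouse chromosome 8 and are protein coding. In RefSeq annotation of GRCm38.p6, Mt3 spans chr8:94152607-94154148, Mt2 spans chr8:94172618-94173567 and Mt1 spans chr8:94178883-94180327, all on the plus strand, so that Mt3 to Mt1 cover 27721 bases. Mt4, the remaining family member, starts at position 94137204, and 1 annotated lncRNA, Gm39227, lies between Mt3 and Mt2. The count table held 1 transcript for each gene: Mt1-201 of 540 nucleotides, Mt2-201 of 556 and Mt3-201 of 538. Their coding sequences were 186, 186 and 207 nucleotides long, or 61, 61 and 68 residues, and took 34.4%, 33.5% and 38.5% of the transcript. The remainder was untranslated, with 222, 230 and 193 nucleotides annotated before the coding sequence and 132, 140 and 138 after it. No count was therefore divided between isoforms, which was so for 25.6% of the 13317 coding genes whose counts averaged 10 or more, the set used to compare densities.

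The metal response element, the DNA motif that Mtf1 binds, was searched by its core letters, TGCACNC or TGCGCNC on both strands, because it is the textbook link between zinc and this family. The windows were RefSeq's 250 bases before to 50 bases after the annotated start in GRCm38.p6, which were found for 3 of 3 genes. The start used for Mt1 lies inside the gene span given above and not at its first base. Mt2 had 4 matches, Mt1 had 3 and Mt3 had 1. Of 32851 windows of this length, 25.7% held at least 1 match, 1.97% at least 3 and 0.517% at least 4. The sites below show the match in capitals, with its neighbouring bases on the plus strand in lower case. All 8 matches of the 3 genes are shown, and the last 2 of Mt2 are on the minus strand. Before the annotated start lay 1 of the 3 Mt1 matches, 3 of the 4 Mt2 matches and 0 of the 1 Mt3 match.
Mt1, chr8:94179057-94179081: gtcccgctgTGCACACtggcgctcc
Mt1, chr8:94179082-94179106: agggagctcTGCACTCcgcccgaaa
Mt1, chr8:94179100-94179124: cccgaaaagTGCGCTCggctctgcc
Mt2, chr8:94172386-94172410: catcgcctcTGCACCCggcccctcg
Mt2, chr8:94172481-94172505: cagacccttTGCGCTCagctccttt
Mt2, chr8:94172559-94172583: ggggagggcGTGTGCAggctctgtc
Mt2, chr8:94172613-94172637: attcgggtcGTGCGCAggcccaggg
Mt3, chr8:94152625-94152649: ggacagcagTGCACACacacggaga
A match says only that these letters are present, and binding was not measured.

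The libraries held 1866831 footprints in replicate 1 and 5261878 in replicate 2, a ratio of 2.82, so values from replicate 2 carry the smaller counting error. Levels are given as CPM, the count scaled to a common library size of 1000000 footprints, with Clopper-Pearson 95% intervals. A count of 3 was taken as the floor, which is 1.61 CPM for replicate 1 and 0.570 for replicate 2. The intervals and the floor cover counting error only. Markers of each brain cell type examined had footprints in both libraries, and none of those 55 genes was at 0.

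All 3 metallothioneins had footprints on polysomes of the newborn brain, and Mt3 had the most. Mt3 (ENSMUSG00000031760) had 367 footprints in replicate 1 and 474 in replicate 2, or 197 CPM (95% interval 177 to 218) and 90.1 CPM (82.2 to 98.6), with a mean of 143 ± 75.3 CPM (SD, n = 2). Mt1 (ENSMUSG00000031765) had 137 and 185 footprints, or 73.4 CPM (61.6 to 86.8) and 35.2 CPM (30.3 to 40.6), with a mean of 54.3 ± 27.03 CPM (SD, n = 2). Mt2 (ENSMUSG00000031762) had 123 and 206 footprints, or 65.9 CPM (54.8 to 78.6) and 39.1 CPM (34.0 to 44.9), with a mean of 52.5 ± 18.9 CPM (SD, n = 2). Each gene was thus higher in replicate 1, and for none of them did the intervals of the replicates overlap, as was the case for 17.4% of all 16427 genes that passed the same minimum, and for 6.65% with replicate 2 the lower. Mt4 (ENSMUSG00000031757) had 0 footprints in replicate 1 and 2 in replicate 2, both under the floor of 3 counts.

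As a share of all footprints, the 3 genes together took 0.0336% in replicate 1 (95% interval 0.0310 to 0.0363) and 0.0164% in replicate 2 (0.0154 to 0.0176), a mean of 0.0250% ± 0.0121 (SD, n = 2). Genes of such length have room for few ribosomes, so levels of different genes are compared per length only.

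Per length of coding sequence the family stood higher. Mt3 had 949.7 CPM per kilobase of coding sequence in replicate 1 (95% interval 855 to 1052) and 435 in replicate 2 (397 to 476), a mean of 692 ± 364 (SD, n = 2). Mt1 had 395 CPM per kilobase (331 to 466) and 189 (163 to 218), a mean of 292 ± 145 (SD, n = 2). Mt2 had 354 CPM per kilobase (294 to 423) and 210.5 (183 to 241), a mean of 282 ± 102 (SD, n = 2). Within each library the Mt3 interval lay above those of Mt1 and Mt2, whereas the intervals of Mt1 and Mt2 overlapped and their order changed from replicate 1 to replicate 2.

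**Figure D1:**
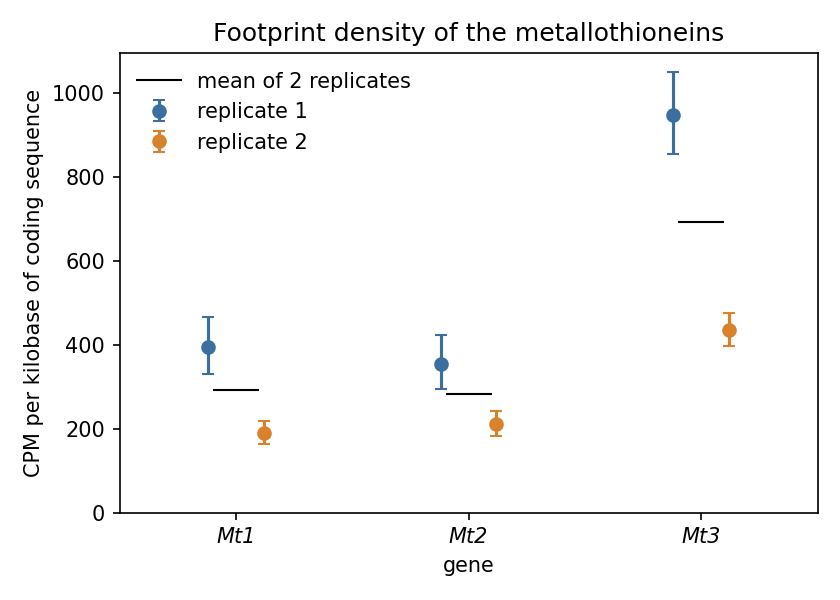
CPM per kilobase of coding sequence of Mt1, Mt2 and Mt3 in replicate 1 (blue) and replicate 2 (orange), with Clopper-Pearson 95% intervals as bars and the mean of the 2 replicates as a black line. Mt3 is the highest in both libraries, at 949.7 and 435, and every gene is lower in replicate 2.

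The proportions within the family differed less between the replicates than the levels did. Mt3 made up 58.5% of the metallothionein footprints in replicate 1 (95% interval 54.6 to 62.4) and 54.8% in replicate 2 (51.4 to 58.2), a mean of 56.7% ± 2.64 (SD, n = 2). Mt1 made up 21.9% (18.7 to 25.3) and 21.4% (18.7 to 24.3), and Mt2 made up 19.6% (16.6 to 22.9) and 23.8% (21.01 to 26.8). For each gene the intervals of the 2 libraries overlapped, in contrast to the levels themselves. Such overlap does not show that the proportions were equal. Per length, Mt3 was 2.41 times Mt1 in replicate 1 (interval 1.97 to 2.95) and 2.30 times in replicate 2 (1.94 to 2.74). It was 2.68 times Mt2 (2.18 to 3.32) and 2.07 times (1.75 to 2.45). The ratio of Mt1 to Mt2 was 1.11 (0.867 to 1.43) and 0.898 (0.732 to 1.10), and both intervals include equality.

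Set against all 13317 coding genes, the density of Mt3 ranked 103 from the top, that of Mt1 ranked 531 and that of Mt2 ranked 553. Short genes rank high in this order in general, as the plot of density against coding length shows, and a minimum count demands a higher density of a short gene. Genes of like length were therefore set beside each member, taken as those whose longest coding sequence is within 25% of the member's. Among 140 such genes for Mt3 the median was 209.9 CPM per kilobase (quartiles 90.9 to 379), and Mt3 stood 3.30 times above it, with 128 genes lower and 12 higher. Among 89 such genes for Mt1 and Mt2 the median was 231 CPM per kilobase (quartiles 109 to 367). Mt1 had 54 of them below it and 35 above, and Mt2 had 53 below and 36 above. Mt3 was thus at percentile 91.4 of genes as short as itself, while Mt1, at 60.7, and Mt2, at 59.6, were inside the quartiles.

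These positions moved with the library. Mt3 was at percentile 94.3 of its length class in replicate 1 and 82.1 in replicate 2. Mt1 was at 71.9 and 44.9, and Mt2 at 68.5 and 51.7. In replicate 2, then, Mt1 and Mt2 were close to the middle of genes of their length. Counted per kilobase of whole transcript instead, Mt1 and Mt2 were both at percentile 76.4 and Mt3 at 97.9.

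**Figure D2:**
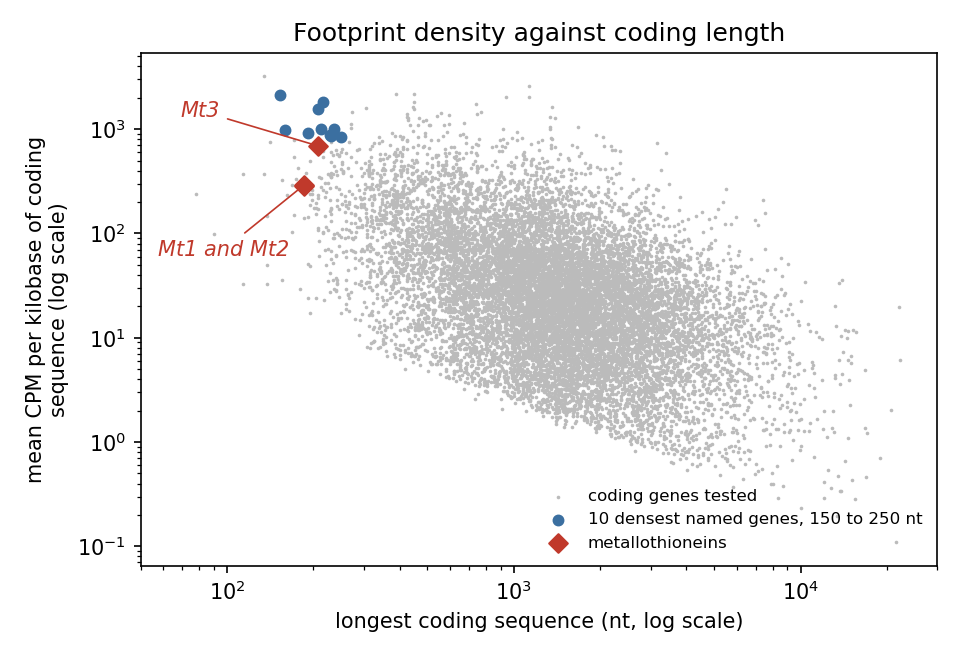
Mean CPM per kilobase of coding sequence against the longest coding sequence in nucleotides, both on log scales, for 13317 coding genes (grey), the 10 densest named genes of 150 to 250 nucleotides (blue) and the metallothioneins (red diamonds). The sloping lower edge is the minimum count. Mt3 lies just under the densest short genes, and the points of Mt1 and Mt2 coincide at 292 and 282.

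The densest short genes give a scale for these values. Of 130 coding genes with a coding sequence of 150 to 250 nucleotides, Mt3 ranked 14, Mt1 ranked 49 and Mt2 ranked 51. Tmsb4x, which encodes the actin-sequestering peptide thymosin beta 4, led the named genes at 2108 ± 579 CPM per kilobase of coding sequence (SD, n = 2). Gng2, a G protein gamma subunit, followed at 1829 ± 296, and Nrep, a neuronal protein linked to nerve regeneration, at 1559 ± 261. Nrgn, the postsynaptic calmodulin-binding protein neurogranin, had 1008 ± 511, and the ribosomal protein gene Rpl38 had 997 ± 94.8. The others of the first 10 were Atp5e of ATP synthase, Cox7c of cytochrome c oxidase, Gng3, the protein kinase A inhibitor Pkia and Uqcrq of complex III, which closed the list at 834 ± 89.2. Most of these are general or neuronal genes, and Mt3, at 692 ± 364, lay less than its own SD below Uqcrq and Nrgn.

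All 3 metallothioneins had lower levels in replicate 2 than in replicate 1. Ratios are log2 values of replicate 2 over replicate 1, scaled by TMM (trimmed mean of M values) with a prior of 0.5 CPM, on which the median of all 16427 genes tested, coding or not, was 0.0056 (quartiles -0.28 to 0.30). The ratio was -1.25 for Mt3 (95% counting interval -1.45 to -1.05), -1.18 for Mt1 (-1.51 to -0.86) and -0.87 for Mt2 (-1.21 to -0.54). On library totals, without TMM, the ratios were -1.12, -1.05 and -0.74. TMM shifted ratios by about -0.13 log2 units relative to library totals, for all genes alike apart from the prior. The medians on library totals given below are therefore not to be read against 0. A share of 1.11% of all genes had a ratio below -1, a range that held Mt1 and Mt3 but not Mt2. Mt3 had the 56th lowest ratio, Mt1 the 81st and Mt2 the 365th.

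An exact binomial test, two-sided and with Benjamini-Hochberg adjustment over all 16427 genes, compared the counts of the 2 libraries for each gene. All 3 metallothioneins were called lower in replicate 2 at an adjusted p under 0.05, where 17.4% of all genes were called in either direction and 11.5% in this one. The balance of directions over all genes turned with the scaling: 978 genes were higher and 1883 lower with TMM, and 1896 higher and 1227 lower on library totals, where 3 of 3 metallothioneins were again lower and 7.47% of all genes were called so. Nothing is drawn from the 3 calls, since the difference between replicates was part of the reason for choosing the family, and the test sets 1 library against another with no noise other than counting. With edgeR's exact test and the common dispersion of the same libraries, 0 of the 3 were called after adjustment. Of all genes 11 were called, of which 11 were higher in replicate 2 and 0 lower. All 3 members had an unadjusted p under 0.05 in that test, as had 719 of all genes. The common dispersion was estimated from the difference it was then used to test.

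Short coding sequences as a class were lower in replicate 2. The median log2 ratio was -0.36 in the 127 other coding genes of 150 to under 250 nucleotides, -0.16 in the 1033 of 250 to under 500 and -0.06 in the 2938 of 500 to under 1000. It was -0.0037 in the 5063 of 1000 to under 2000, 0.06 in the 3151 of 2000 to under 4000 and 0.10 in the 992 of 4000 or more. The share called lower in replicate 2 was 43.3% in the class of 150 to under 250 nucleotides and 6.65% in the class of 4000 or more. In the class that holds the metallothioneins, a call in this direction was therefore common.

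**Figure D3:**
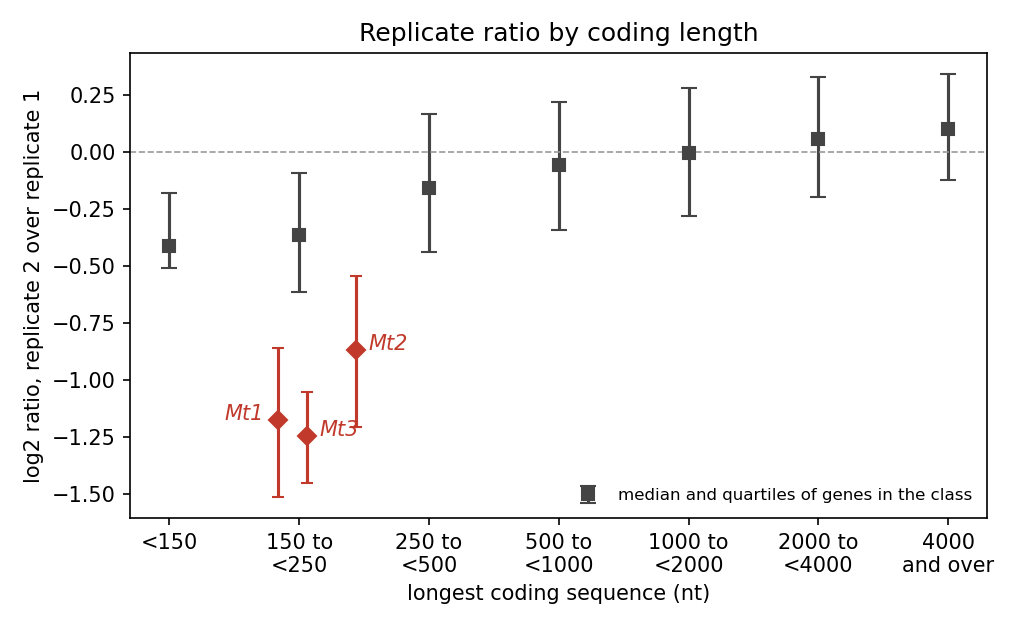
Log2 ratio of replicate 2 over replicate 1 by class of longest coding sequence in nucleotides, with the median (squares) and quartiles (bars) of the coding genes in each class other than the metallothioneins, and the ratios of Mt1, Mt2 and Mt3 (red diamonds, spread sideways within the class of 150 to under 250) with 95% counting intervals. The class under 150 holds 10 genes. The median is -0.36 in the class of the metallothioneins, and all 3 lie under its lower quartile of -0.62.

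Within that class the metallothioneins were at the low end. Among the 89 genes of like length to Mt1 and Mt2 the median ratio was -0.39 (quartiles -0.61 to -0.12), 71 lay below 0, and 40 were called lower and 1 higher. Of these genes, 1 had a lower ratio than Mt1 and 5 had a lower ratio than Mt2. Among the 140 of like length to Mt3 the median was -0.36 (quartiles -0.60 to -0.09), and 1 had a lower ratio than Mt3. That gene was in each case Gng11, another G protein gamma subunit, singled out after its values were seen, with 30 and 31 footprints and a ratio of -1.49. Genes matched to Mt3 on both length and density, the latter within 2-fold, numbered 42, with a median of -0.56 and a range of -1.21 to 0.33. Those matched to Mt1 numbered 46, with a median of -0.45 and a range of -0.96 to 0.67, and those matched to Mt2 numbered 47, with a median of -0.43 over the same range. By their point values, Mt1 and Mt3 thus lay below every gene matched to them on both measures, and Mt2 lay inside the range. The lowest matched ratios, -0.96 for Mt1 and -1.21 for Mt3, were inside the counting intervals of these members. The latter was that of Nrgn, so Mt3 was not set apart from its matched genes. The part that coding length and density play in the members' ratios was not tested.

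The genes closest to each member in the plane of log2 CPM in the 2 libraries are named by that distance alone, which rests on 2 samples. Nearest to Mt3 were Atp6v0e2, a subunit of the proton-pumping V-ATPase, at a distance of 0.17 log2 units, Mrfap1 at 0.28 and the oligodendrocyte lineage factor Olig1 at 0.29. Atp6v0e2 had 329 and 491 footprints. Nearest to Mt1 were Manbal at 0.11, Smim13 at 0.17 and the transcription factor Foxo6 at 0.21. Nearest to Mt2 were the mitochondrial ribosomal protein gene Mrpl43, Eid2b and Klhl26, at 0.02, 0.02 and 0.06. None of the 9 was another metallothionein.

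Genes that handle zinc had ratios on both sides of 0. The list held 24 genes, zinc transporters together with Mtf1 and Mtf2, both named for metal response. Of these genes 21 passed the minimum count, with a median log2 ratio of 0.06. Of the 21, 1 was called higher in replicate 2 and 0 lower in that test, where 5.95% of all genes were called higher and 11.5% lower. The called gene was Slc39a12, a zinc importer of the brain, with 46 and 216 footprints and a ratio of 0.60. Mtf1, the activator of Mt1 and Mt2, had 34 and 66 footprints and a ratio of -0.64 that was not called. Slc30a1, the zinc exporter of the plasma membrane and itself an Mtf1 target, had 83 and 223 footprints and a ratio of -0.19, also not called. The importers Slc39a6, Slc39a7, Slc39a10 and Slc39a3 had the highest mean CPM of the list, from 149 ± 4.61 to 85.8 ± 6.63 (SD, n = 2), with ratios from -0.28 to 0.19. On library totals, 4 zinc genes were called higher and 0 lower, with a median of 0.18, where the shares of all genes were 11.5% and 7.47%.

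Copper handling genes went in both directions. All 12 were tested, 3 were called lower and 1 higher, and the median ratio was -0.16, or -0.04 on library totals with 2 called lower and 2 higher. Of all genes, 11.5% were called lower and 5.95% higher with TMM, and 7.47% and 11.5% on library totals. The list was not matched to the members in coding length. Sod1, the copper and zinc superoxide dismutase, had 364 and 594 footprints and a ratio of -0.91. Atox1, the copper chaperone of the secretory pathway, had 106 and 205 footprints and a ratio of -0.66, and Ccs, the copper chaperone of Sod1, had 85 and 180 and a ratio of -0.53. The copper-carrying ferroxidase Cp had 27 and 171 footprints and a ratio of 1.02. The copper importer Slc31a1 and the export pumps Atp7a and Atp7b were not called, at 0.07, 0.03 and -0.67, nor was Commd1, among the 4 most abundant, at 0.34.

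The lists of oxidative defence and of glucocorticoid-responsive genes, which hold other genes of the settings in which Mt1 and Mt2 are induced, had medians near that of all genes. The shares of all genes called were 5.95% higher and 11.5% lower with TMM, and 11.5% higher and 7.47% lower on library totals. Of 18 oxidative defence genes 3 were called higher and 4 lower, with a median of -0.03 that became 0.09 on library totals. Their 4 most abundant by CPM were the peroxiredoxins Prdx2 and Prdx1, Cat and Txn1, with ratios of -0.04, 0.23, -0.10 and -0.83, of which those of Prdx1 and Txn1 were called. Of 14 glucocorticoid-responsive genes 0 were called higher and 2 lower, with a median of -0.03 that became 0.09 on library totals, when 2 were called higher. The 2 called lower with TMM were Ddit4 at -0.66 and Cdkn1a at -0.46. Sgk1 and Fkbp5, the others of the 4 most abundant, had ratios of 0.23 and 0.38 and were not called. Of the 14 genes, 9 had a ratio below 0 with TMM. The part of glucocorticoids in the members' levels was not tested.

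The cell types in which metallothioneins are made were followed through their markers, since in whole brain fewer cells of a type and less RNA per cell cannot be told apart. Astrocyte markers summed to 5142 CPM (replicate 1) and 4520 CPM (replicate 2), with 12 of 12 tested, 5 called lower, 0 higher and a median ratio of -0.22, or 4 lower, 2 higher and -0.09 on library totals. Apoe, the lipid carrier of astrocytes, had a ratio of -0.57, while the glutamate transporters Slc1a3 and Slc1a2 had -0.13 and 0.08 and were not called. Clu and Aldoc, the remaining most abundant markers, had -0.22 and -0.28. Neuronal markers summed to 6551 and 5365 CPM, with 7 of 12 called lower, 0 higher and a median of -0.37, or 6 lower, 0 higher and -0.24 on library totals. Over all genes, 11.5% were called lower and 5.95% higher with TMM, and 7.47% lower and 11.5% higher on library totals. The 4 most abundant were Map2 at -0.06, Tubb3 at -0.99, Stmn2 at -0.81 and Dcx at -0.03. The ratios of all 3 metallothioneins were lower than those of all 12 astrocyte markers, and Mt1 and Mt3 were lower than all 12 neuronal markers. The markers were not matched to the members in coding length, and short coding sequences as a class had lower ratios. Nothing on cell types is therefore drawn from this order.

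Per kilobase of coding sequence, Mt3 at 692 ± 364 CPM lay between these markers. Apoe had 2039 CPM per kilobase, Stmn2 had 1346, Tubb3 had 814 and Snap25 had 676. Aldoc had 404, Slc1a3 had 336 and Map2 had 265. Mt1 and Mt2, at 292 and 282, lay on the mean between Map2 and Slc1a3. In replicate 2 alone, however, Mt1 was at 189, Mt2 at 210.5 and Mt3 at 435, whereas Slc1a3 was at 336 in both libraries. The markers were not matched to the members in coding length, so this is no order among genes of like length. Median density was 210 CPM per kilobase in the other coding genes of 150 to under 250 nucleotides. It was 21.9 in those of 1000 to under 2000.

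Other cell types gave smaller sums. Beside the calls below, 5.95% of all genes were called higher and 11.5% lower with TMM, and 11.5% higher and 7.47% lower on library totals. Choroid plexus and ependymal markers summed to 650.3 CPM (replicate 1) and 349 CPM (replicate 2), of which Ttr, the thyroid hormone carrier of choroid plexus, made up most. Ttr had 1087 and 1456 footprints and a ratio of -1.20, the 1 call among 5 markers, while Folr1, Foxj1 and Clic6 had 0.40, -0.40 and -0.37. Oligodendrocyte lineage markers had 2 called higher and 3 lower of 8 (2 and 2 on library totals) and a median of 0.0091, led by Mbp at 0.70, Cnp at 0.04, Pdgfra at -0.02 and Olig1 at -0.84. Endothelial markers had 1 called lower of 6 (1 lower and 1 higher on library totals), Cldn5 at -0.91, with Slc2a1 at -0.28, Cdh5 at -0.35 and Flt1 at 0.43. Microglial markers had 1 called higher and 2 lower of 6 (1 and 0 on library totals), with Csf1r at -0.08, Cx3cr1 at -0.29, P2ry12 at 0.82 and C1qa at -0.64. Meningeal markers had 1 called higher and 4 lower of 6 (1 and 2 on library totals), with Ptgds at -0.18, Igf2 at -0.32, Col1a1 at -0.55 and Col1a2 at -0.28. Sums over endothelium were 368 and 312 CPM, over microglia 233 and 238, over meninges 1615 and 1474, and over the oligodendrocyte lineage 988 and 1122. The part of cell makeup in the metallothionein levels was not tested.

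**Figure D4:**
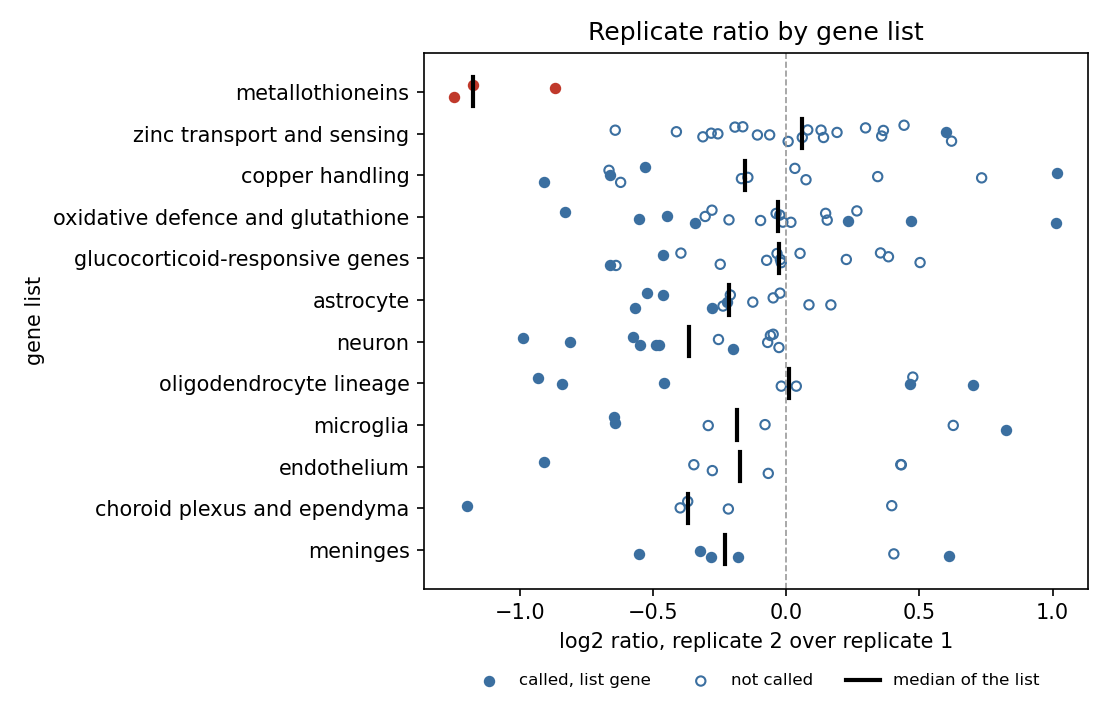
Log2 ratio of replicate 2 over replicate 1 for the metallothioneins (red) and for the genes of 11 lists (blue) that passed the minimum count, 1 point a gene, filled where the exact binomial test called it, with the median of each list as a black line. The metallothioneins lie from -1.25 to -0.87, whereas the list medians lie from -0.37 to 0.06. The lists were not matched to the metallothioneins in coding length.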

How the data were processed

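Per the labels' protocols, pooled polysomal fractions were digested with RNase I, and fragments of 25 to 35 nucleotides were sequenced. Messages with a single ribosome lie outside such fractions, which bears on short coding sequences. The submitters' processing notes name Trimmomatic 0.36, Bowtie2 2.2.6 and SAMtools, with genome build GRCm38.p4. The counting step and the handling of duplicates and of fragments matching several genes are not given in the sources used here, so reads shared between metallothionein copies remain uncertain. The authors deposited raw counts per transcript, without normalization, beside other annotation columns of lengths.

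Counts were summed per gene over 109463 transcripts. Because counts cover whole transcripts, density per coding sequence takes in any footprint outside it. Each gene's longest coding sequence was used. TMM came from edgeR 4.0.16, size factors from DESeq2 1.42.0, and the binomial test from scipy 1.17.1. The binomial test was run on simulated counts with counting noise only, so that run says nothing on noise beyond counting. The edgeR quasi-likelihood test had no contrast in 1 group. RefSeq tables of GRCm38.p6 gave positions and promoters; patch releases share chromosome coordinates. Symbols of 32301 genes matched. Protein sequences were not used here.

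The members and the 11 lists were chosen with earlier results of these data known. Named genes were the family, the 10 densest named genes of 150 to 250 nucleotides, the 3 nearest genes to each member, the 4 most abundant genes of each list and every called zinc or copper gene; others named in the text are further list members that serve as background. Alternatives were other scalings, priors, count minimums, transcript choices, length windows and each replicate alone. An item of the oligodendrocyte list is not reported here and was left out of its values.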

Additional observations from a re-analysis of the deposited data

How the results depend on the processing

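Direction was the same in all alternatives tried for the log2 ratios of Mt1, Mt2 and Mt3 (2 scalings, 2 priors, 2 transcript choices), and these ratios stayed inside their counting intervals. With the highest transcript per gene, the family share was 0.0482%, since the library total is smaller by construction. The density of Mt1, Mt2 and Mt3 was then 562, 546 and 1332 CPM per kilobase of coding sequence, on that smaller total. In a separate alternative, on the full library totals, density per kilobase of transcript was 101, 94.5 and 266. Using the highest transcript left 1444 genes called between the libraries, and edgeR's exact test 11, in place of 2861. On library totals 1896 were higher and 1227 lower in replicate 2, in place of 978 and 1883. Against all coding genes, the density percentile of Mt1 was 96.01 and of Mt2 95.8. Per kilobase of transcript, Mt1 and Mt2 were both at percentile 76.4 of the 89 genes of like coding length, not of all coding genes. Genes within 10% of the length of Mt1 or Mt2 had a median ratio of -0.54, and those of like length and density to Mt3 had -0.56. Genes of like density and any length, chosen after seeing the data, had -0.23 for Mt1, -0.22 for Mt2 and -0.36 for Mt3. Of these genes, 46.8%, 46.3% and 69.3% were called lower in replicate 2, where 11.5% of all genes were. A lower ratio was thus also common in dense genes of any coding length. The cause was not tested. Each replicate alone put the family share at 0.0164% to 0.0336%, the Mt3 part of it at 54.8% to 58.5%, and the length-class percentile at 44.9 to 71.9 for Mt1, 51.7 to 68.5 for Mt2 and 82.1 to 94.3 for Mt3. Density was 189 to 395 for Mt1, 210.5 to 354 for Mt2 and 435 to 949.7 for Mt3. No paired analysis was possible because the samples form 1 group. With 2 libraries, a ratio has no replicate of its own, and matched RNA was not analysed here, so levels are not translational efficiencies.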
